A study of Mus musculus with 6 samples.

Results

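The integrated stress response is a shared cellular reply to amino acid shortage, misfolded protein, viral RNA and heme deficiency. Each of these stresses activates a kinase that phosphorylates the translation factor eIF2alpha, which slows general protein synthesis while the mRNA of the transcription factor ATF4 is translated more. ATF4 then switches on genes for amino acid synthesis and uptake and for stress control, among them the enzymes that make serine from a glycolytic intermediate. The kidney is a main site of serine production in the body. The genes described here are 10 members of this ATF4 arm, found as rows of the deposited count table by their symbols: the transcription factor genes Atf4 and Ddit3, the stress regulators Trib3, Ddit4, Sesn2 and Chac1, the asparagine synthetase gene Asns, and the serine synthesis genes Phgdh, Psat1 and Psph. All 10 were among the 25031 genes of the table and passed the filter on low counts, as did 15416 genes in all. The symbol Ddit3 stood on 2 rows, and the row used was the one with reads, since the other had a count of 0 in every library.

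The samples were 6 kidney libraries from C57BL/6 mice, all male, wild-type and 7 to 8 weeks old. All animals had ischemia of both kidneys for 23 minutes with body temperature held at 37 °C, followed by reperfusion. The vehicle group (3 libraries) was given saline and the CePPy group (3 libraries) 5 mg/kg of (+)CePPy, positively charged polypyrrole nanoparticles doped with cerium, by vein right after the injury. Both groups therefore carry the injury, uninjured kidneys were not analysed here, and the interval to collection was not given in the sources used here. Nothing in the labels says that the libraries came from separate animals, and p-values thus reflect library-to-library spread that may be only technical.

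Total counts lay between 29762157 and 37415213 per library, so that 1 count was worth between 0.0266 and 0.0333 CPM (counts per 1000000 counted, on library sizes scaled by the TMM method). Defining markers of kidney were present, with no marker gene at 0 in all libraries. On the first principal component, with 38.5% of the variance, CePPy 1 (56.8) lay farthest from the vehicle libraries (-29.8 to -18.1) and CePPy 2 (3.85) nearest. All 11 proximal tubule markers, all 6 of the thick ascending limb, all 4 of the distal convoluted tubule, all 6 of the collecting duct and all 5 tested of 7 T and B cell markers had higher mean values in CePPy. Summed levels of the proximal tubule list were 11823 to 13066 CPM in vehicle and 12340 to 22960 in CePPy, and those of the thick limb list 2755 to 3071 and 3539 to 6521. For the distal convoluted tubule they were 300.3 to 378 and 356 to 624 CPM, for the collecting duct 250.4 to 282 and 344 to 455, and for T and B cells 3.27 to 8.71 and 5.43 to 12.5. The sums of the thick limb and collecting duct lists did not overlap between the groups, and those of the other 3 did. Kap made up most of the proximal tubule sum (8336 to 9379 CPM in vehicle and 8290 to 13933 in CePPy). Of the 11 proximal tubule genes, 5 lay wholly above vehicle in CePPy and 0 wholly below. Tubular injury markers had lower values in 6 of 7 genes, with overlapping sums (30706 to 31559 CPM in vehicle and 17324 to 33430 in CePPy). Spp1 made up most of these sums (23075 to 24114 CPM in vehicle and 14477 to 26822 in CePPy). Of the 7 genes, 5 lay wholly below vehicle in CePPy and 0 wholly above, beside 14.0% and 12.3% of all genes tested. All 5 neutrophil markers tested of 6 had lower values, and their sums did not overlap (33.4 to 50.1 and 9.68 to 22.4 CPM). The other marker lists went both ways. Lower values were found for 4 of 5 podocyte, 4 of 6 endothelial, 4 of 6 macrophage and monocyte and 4 of 5 blood genes. Of 5 fibroblast and mesangium genes, 1 was lower and 4 were higher. For T and B cells, 0 of the 5 genes tested lay wholly above vehicle in CePPy. In whole tissue, fewer cells of a type and less RNA per cell cannot be told apart, and the part of these differences in the results below was not tested.

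To show where known control sequences lie, promoter sequences of RefSeq on GRCm38.p6, matched for all 10 genes by symbol, were searched from 250 bases before to 50 bases after the start site. The motifs were the C/EBP-ATF response element TGATGNAA, which ATF4 binds with a partner, and the core TGACNNNGC of the antioxidant response element bound by NRF2, each on both strands. Of 32851 promoters in the table, 3.97% held the first motif and 12.4% the second. Counted by gene, the shares were 4.51% and 14.0% of 27025 genes. Psat1 had 2 promoters in the table, without a match in either. The first motif was found in Asns, Chac1 and Trib3, the second in Sesn2, Asns, Phgdh and Psph, and the matches of the 2 motifs did not overlap. The 3 promoters with the ATF4 motif and that of Phgdh, the first enzyme of serine synthesis, are printed 5′ to 3′ up to 30 bases past the start, with every match to either motif in capitals.
Asns (chr6:7693180-7693459, minus strand): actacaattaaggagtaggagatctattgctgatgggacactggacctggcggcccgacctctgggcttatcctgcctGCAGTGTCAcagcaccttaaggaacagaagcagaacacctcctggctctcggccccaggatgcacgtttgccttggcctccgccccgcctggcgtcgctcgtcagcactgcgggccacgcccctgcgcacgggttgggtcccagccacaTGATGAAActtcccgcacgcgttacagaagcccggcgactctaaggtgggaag
Chac1 (chr2:119350992-119351271, plus strand): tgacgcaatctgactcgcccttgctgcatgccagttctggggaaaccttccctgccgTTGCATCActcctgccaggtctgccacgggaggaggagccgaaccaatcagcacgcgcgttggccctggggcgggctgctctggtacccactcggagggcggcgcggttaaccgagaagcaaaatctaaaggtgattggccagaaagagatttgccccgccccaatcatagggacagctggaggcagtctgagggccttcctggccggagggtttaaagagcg
Trib3 (chr2:152344031-152344310, minus strand): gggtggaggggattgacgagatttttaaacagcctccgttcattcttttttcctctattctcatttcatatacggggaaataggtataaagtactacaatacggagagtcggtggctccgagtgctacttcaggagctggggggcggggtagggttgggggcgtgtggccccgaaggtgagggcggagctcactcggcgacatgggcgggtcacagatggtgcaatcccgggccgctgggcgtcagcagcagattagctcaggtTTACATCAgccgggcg
Phgdh (chr3:98339940-98340219, minus strand): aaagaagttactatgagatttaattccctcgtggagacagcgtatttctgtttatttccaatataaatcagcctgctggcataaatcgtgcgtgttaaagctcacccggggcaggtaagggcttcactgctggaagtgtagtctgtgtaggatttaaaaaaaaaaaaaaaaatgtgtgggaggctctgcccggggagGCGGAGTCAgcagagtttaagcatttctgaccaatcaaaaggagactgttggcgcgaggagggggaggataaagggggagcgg
In Asns the match TGATGAAA began 23 bases before the start site, and the match GCAGTGTCA, the second motif on the other strand, began 172 bases before it. The Chac1 match TTGCATCA began 193 bases before the start and the Trib3 match TTACATCA 14 bases after it, both on the other strand. In Phgdh the match GCGGAGTCA to the second motif began 53 bases before the start. These are matches of letters, not measured binding.

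Setting CePPy against vehicle asks which of these transcripts differ when an injured kidney receives the particles. Ddit4, Phgdh and Psat1 were at 48.9%, 61.5% and 71.9% of their vehicle means, and each of the 3 lay below every vehicle library in every CePPy library. The mRNA of Atf4 itself was at 107.5% of its vehicle mean. The other 6 had lower means, between 68.5% (Chac1) and 89.1% (Ddit3) of vehicle, with overlapping groups. No member passed the edgeR quasi-likelihood test at an adjusted p under 0.05, where 0.00649% of all genes tested (1 of 15416) did. At an unadjusted p under 0.05, 3 of the 10 were lower and 0 higher, against 9.37% and 9.65% of all genes. Groups did not overlap, with CePPy lower, for 3 of 10 members and 14.0% of all genes, and with CePPy higher for 0 of 10 and 12.3%. DESeq2 called Ddit4, Phgdh and Psat1 lower and 0 members higher, where it called 3.43% of genes lower and 3.64% higher. The median log2 fold change of the members was -0.27, beside 0.00 over all genes tested, and it was -0.48 without CePPy 2 and -0.18 without CePPy 3.

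**Figure D1:**
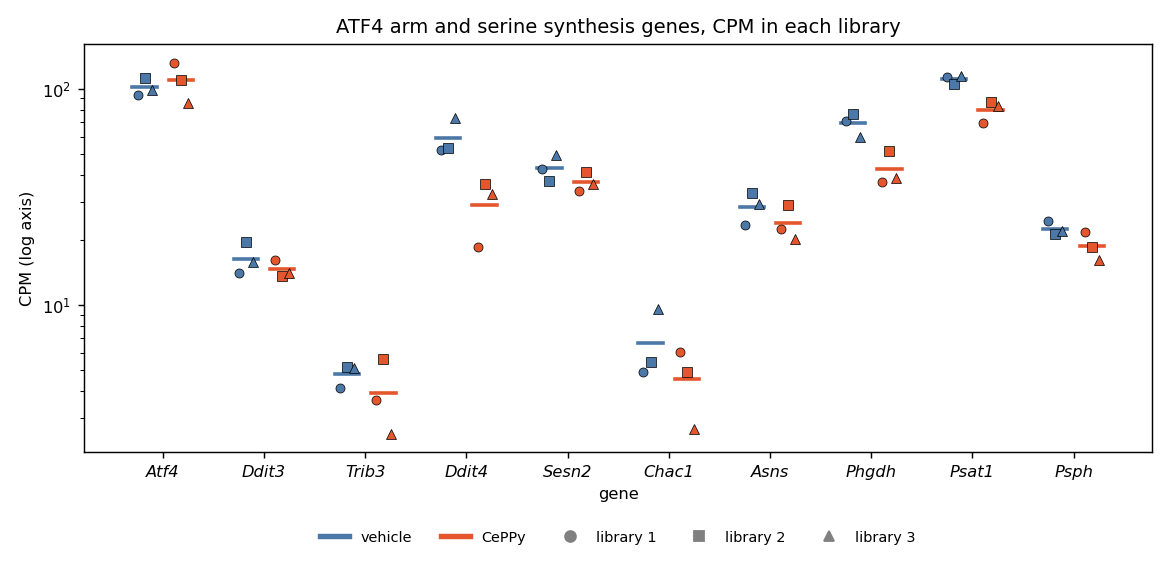
Level of each gene in CPM on a log axis, with vehicle libraries in blue and CePPy libraries in orange, symbol shape for the library number and a bar at the group mean (n = 3). The CePPy points of Ddit4, Phgdh and Psat1 lie below all vehicle points, while those of the other 7 genes overlap with vehicle.

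Atf4 encodes the transcription factor at the head of this arm (ENSMUSG00000042406, chromosome 15, 80255184 to 80257541, plus strand, GRCm38). Its level was 93.4, 112 and 99.0 CPM in vehicle 1, 2 and 3 and 132, 110 and 85.5 CPM in CePPy 1, 2 and 3. CePPy held both the highest and the lowest library, so the groups overlapped throughout. The log2 fold change was 0.10 (SE 0.15, 95% interval -0.25 to 0.46, edgeR adjusted p = 0.744). The sign rested on CePPy 1: without it the value was -0.052, and limma-voom with sample quality weights gave -0.071. It was 0.26 without CePPy 3, 0.18 without vehicle 2 and 0.047 without vehicle 1. Since ATF4 is controlled largely by translation, its mRNA level does not give the amount of protein.

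Ddit3 encodes CHOP, a transcription factor that ATF4 induces in prolonged stress (ENSMUSG00000025408, chromosome 10, 127290774 to 127296288, plus strand). It measured 14.0, 19.4 and 15.7 CPM in vehicle and 16.1, 13.5 and 14.0 in CePPy. Vehicle 2 was the highest library and the others lay close together. The log2 fold change was -0.17 (SE 0.15, 95% interval -0.51 to 0.17, edgeR adjusted p = 0.565), with -0.024 without vehicle 2 and -0.27 without vehicle 1. Its exons share 68 bases with Mars on the other strand, and the use of strand in counting was not given in the sources used here.

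Ddit4 encodes REDD1, an inhibitor of the growth kinase complex mTORC1 that is induced by hypoxia, glucocorticoids and ATF4 (ENSMUSG00000020108, chromosome 10, 59949669 to 59951834, minus strand). It stood at 52.1, 52.8 and 73.0 CPM in vehicle and 18.5, 36.1 and 32.5 CPM in CePPy. Every CePPy library was below every vehicle library, with CePPy 1 the lowest. The means were 59.3 ± 11.9 and 29.0 ± 9.28 CPM (SD, n = 3 each). Its log2 fold change, the largest in size among the 10, was -1.03 (SE 0.25, 95% interval -1.60 to -0.46, edgeR adjusted p = 0.117 and DESeq2 adjusted p = 0.0013).

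Sesn2, for Sestrin 2, another brake on mTORC1 that senses leucine (ENSMUSG00000028893, chromosome 4, 132492032 to 132510501, minus strand), had overlapping groups. Its levels were 42.5, 37.2 and 49.0 CPM in vehicle and 33.5, 41.3 and 36.1 in CePPy. CePPy 2 lay among the vehicle libraries. The log2 fold change was -0.22 (SE 0.12, 95% interval -0.50 to 0.07, edgeR adjusted p = 0.381), and -0.11 without vehicle 3.

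Trib3 encodes a pseudokinase that feeds back on ATF4 and CHOP and inhibits AKT (ENSMUSG00000032715, chromosome 2, 152337422 to 152344032, minus strand). Its levels were among the lowest of the 10, at 4.12, 5.18 and 5.08 CPM in vehicle and 3.63, 5.61 and 2.53 in CePPy. CePPy 2 was above all vehicle libraries, and CePPy 1 and CePPy 3 were below them. The log2 fold change of -0.28 (SE 0.29, 95% interval -0.96 to 0.40, edgeR adjusted p = 0.63) was -0.048 without CePPy 3 and -0.63 without CePPy 2.

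Chac1 encodes an enzyme that breaks down glutathione and is among the most responsive ATF4 targets (ENSMUSG00000027313, chromosome 2, 119351229 to 119354381, plus strand). It measured 4.90, 5.44 and 9.57 CPM in vehicle and 6.08, 4.89 and 2.67 CPM in CePPy. Vehicle 3 stood high and CePPy 3 low, while the other 4 libraries lay between 4.89 and 6.08 CPM. The log2 fold change was -0.54 (SE 0.36, 95% interval -1.37 to 0.28, edgeR adjusted p = 0.439), and it was -0.18 without vehicle 3 and -0.27 without CePPy 3. Its counts were low, at 80 to 322 per library.

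Asns, which makes asparagine from aspartate and glutamine (ENSMUSG00000029752, chromosome 6, 7675169 to 7693254, minus strand), showed overlapping groups. Its levels were 23.4, 32.8 and 29.2 CPM in vehicle and 22.4, 28.9 and 20.1 CPM in CePPy. In both groups library 2 was the highest. The log2 fold change was -0.26 (SE 0.17, 95% interval -0.65 to 0.13, edgeR adjusted p = 0.436). It was -0.14 without vehicle 2, -0.15 without CePPy 3 and -0.42 without CePPy 2.

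Of the 3 enzymes that make serine, the first, Phgdh, oxidises 3-phosphoglycerate drawn from glycolysis and commits it to the pathway (ENSMUSG00000053398, chromosome 3, 98313170 to 98339990, minus strand). It measured 70.5, 76.3 and 60.0 CPM in vehicle and 37.1, 51.6 and 38.6 CPM in CePPy. All CePPy libraries were below all vehicle libraries, with CePPy 2 the nearest to them. The means were 68.9 ± 8.28 and 42.4 ± 8.00 CPM (SD, n = 3 each), and the log2 fold change was -0.70 (SE 0.15, 95% interval -1.04 to -0.36, edgeR adjusted p = 0.102 and DESeq2 adjusted p = 0.00128). In the GENCODE M21 transcripts, 19 other genes, most of them processed pseudogenes, matched its longest transcript at 90.4% to 98.7% identity over at least 200 bases. Psat1 had 1 such match, the processed pseudogene Gm12611 (91.0%). None of these is a row of the count table, and the handling of reads shared with them was not given in the sources used here.

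Psat1, the aminotransferase of the following step (ENSMUSG00000024640, chromosome 19, 15904678 to 15947337, minus strand), was the most even gene within vehicle, at 113, 105 and 115 CPM. The CePPy libraries measured 69.0, 87.1 and 83.3 CPM, all below vehicle. The means of 111.0 ± 4.90 and 79.8 ± 9.57 CPM (SD, n = 3 each) differed by -0.48 on the log2 scale (SE 0.10, 95% interval -0.71 to -0.24, edgeR adjusted p = 0.104 and DESeq2 adjusted p = 0.00345). Psph, the phosphatase that releases serine in the last step (ENSMUSG00000029446, chromosome 5, 129765558 to 129787449, minus strand), measured 24.3, 21.2 and 22.0 CPM in vehicle. In CePPy it measured 21.7, 18.5 and 16.1 CPM. Only CePPy 1 reached into the vehicle range, and the log2 fold change was -0.26 (SE 0.13, 95% interval -0.56 to 0.04, edgeR adjusted p = 0.316), and -0.16 without CePPy 3. The exons of Psph share 452 bases with a gene on the other strand, Cct6a, which matched its longest transcript at 100% identity over 255 bases. Cct6a under this identifier is not a row of the count table, and the use of strand in counting was not given in the sources used here.

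**Figure D2:**
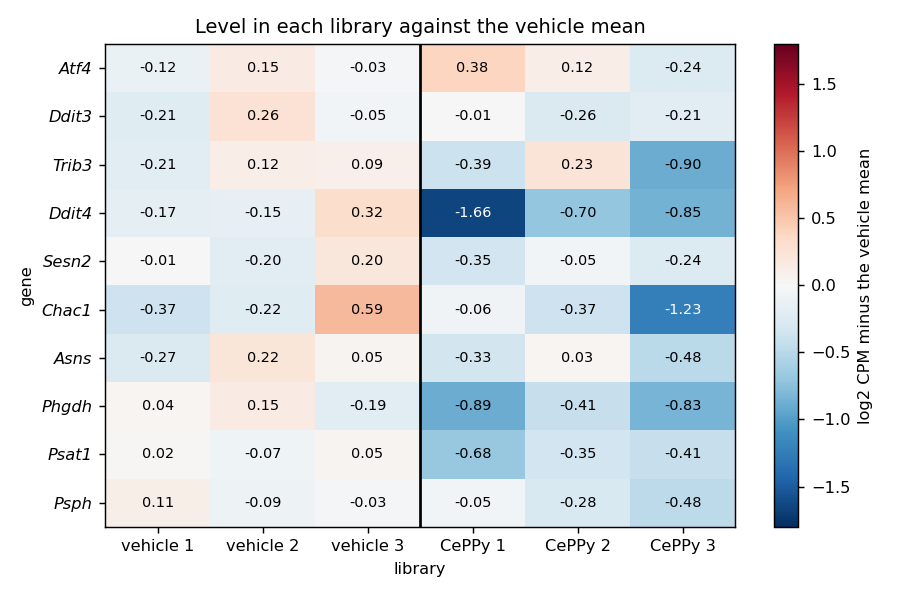
Log2 CPM of each gene (rows) in each library (columns) minus the mean of the vehicle libraries, with blue below and red above that mean. Ddit4, Phgdh and Psat1 are blue in all 3 CePPy libraries, from -1.66 for Ddit4 in CePPy 1 to -0.35 for Psat1 in CePPy 2, while Atf4 runs from 0.38 in CePPy 1 to -0.24 in CePPy 3.

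The 10 genes did not share 1 order of libraries. The lowest of the 6 libraries was a CePPy library for each of the 10, as for 54.5% of all genes tested, and it was CePPy 3 for 5 of them, CePPy 1 for 4 and CePPy 2 for 1. The highest was a vehicle library for 8 of 10, beside 45.9% of all genes. CePPy 1 had the lowest value for Ddit4, Sesn2, Phgdh and Psat1, and CePPy 3 for Atf4, Trib3, Chac1, Asns and Psph. CePPy 2 was the highest CePPy library for 6 of the 10. Averaged over the 10 genes, log2 levels against the vehicle mean were -0.40, -0.20 and -0.59 in CePPy 1, 2 and 3 and -0.12, 0.02 and 0.10 in vehicle 1, 2 and 3.

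Likeness between profiles was measured as the mean absolute difference of log2 CPM, centred on each gene's mean, over the 6 libraries. Among the members the closest pairs were Sesn2 and Psat1 (0.14) and Trib3 and Asns (0.14), and the farthest was Atf4 and Ddit4 (0.58). Phgdh and Psat1 differed by 0.17. Of 12152 other annotated genes averaging 2 CPM or more, those most like Phgdh were Ppp1r14b (0.052), the ribosomal protein pseudogene Rps12-ps3 (0.053) and Spns3 (0.061), where the median over these genes was 0.37. Those most like Atf4 were Slc25a38 (0.034), Zfp719 (0.038) and Sh3bp2 (0.052), with a median of 0.21. For Asns they were Rnf122 (0.051), Dph5 (0.057) and Ruvbl1 (0.060), with a median of 0.25. These likenesses are a description over 6 libraries, with no test.

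Levels between genes are set side by side per length, here as CPM per kilobase of all annotated exons of a gene joined (GENCODE M21). This length can exceed that of any transcript: it was 4254 bases for Psat1, 4329 for Psph and 2486 for Phgdh. Their longest transcripts have 2617, 2877 and 1893 bases. The order below holds for this choice of length, and other choices were not tested. In vehicle, Atf4 was highest at 43.0 ± 4.04 CPM per kilobase, followed by Ddit4 at 33.8 ± 6.76, Phgdh at 27.7 ± 3.33 and Psat1 at 26.1 ± 1.15 (SD, n = 3). The libraries of Ddit4 overlapped with those of Atf4 above it and of Phgdh below it, and those of Phgdh with Psat1. Psat1 lay above Sesn2, the next in order, in every library. Sesn2 at 12.4 ± 1.70, Asns at 10.4 ± 1.72 and Ddit3 at 9.55 ± 1.63 formed a middle group within each other's spread. Psph at 5.20 ± 0.37, Chac1 at 4.05 ± 1.56 and Trib3 at 2.26 ± 0.28 were lowest, and Chac1 overlapped with Psph. In CePPy, Atf4 stayed first at 46.2 ± 9.84 CPM per kilobase, and Psat1 (18.8 ± 2.25), Phgdh (17.1 ± 3.22) and Ddit4 (16.5 ± 5.29) followed within each other's spread. Ddit4 thus stood next to Atf4 in vehicle and below Psat1 and Phgdh in CePPy, while the order of the 6 lowest was the same in both groups.

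**Figure D3:**
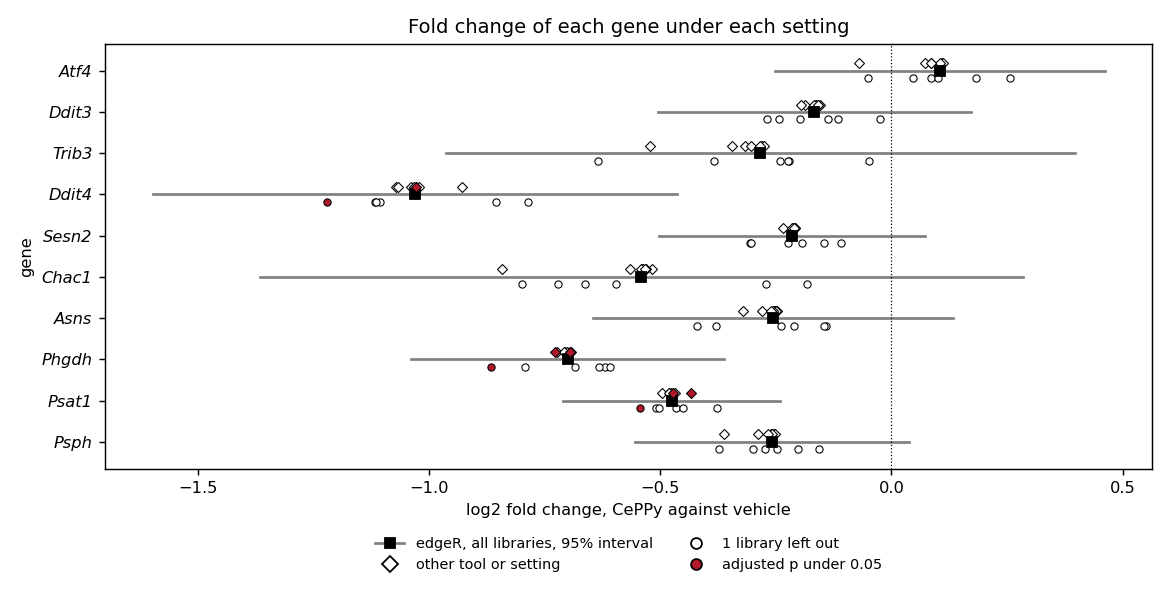
Log2 fold change of each gene, CePPy against vehicle: black squares with 95% intervals for edgeR on all libraries, diamonds for other tools or settings, circles for fits with 1 library left out, and red fill for an adjusted p under 0.05. The intervals of Ddit4, Phgdh and Psat1 lie below 0, red points occur for these 3 genes only, and Atf4 has points on both sides of 0.

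Calls of the 3 lower genes depended on the tool and on CePPy 2. Without CePPy 2, edgeR called Ddit4 (log2 fold change -1.22, adjusted p = 0.0465), Phgdh (-0.87, adjusted p = 0.0172) and Psat1 (-0.54, adjusted p = 0.0378), in a fit that called 811 genes, 5.17% of those tested. Limma-voom with sample quality weights called Phgdh and Psat1 and 352 genes in all. Over the 14 alternatives the edgeR, DESeq2 or limma adjusted p ran from 0.0013 to 0.344 for Ddit4, from 0.00128 to 0.344 for Phgdh and from 0.00345 to 0.344 for Psat1. All 14 gave lower values for each of these 3 genes. The fold changes were smallest in size without CePPy 1, at -0.79 for Ddit4, -0.61 for Phgdh and -0.38 for Psat1.

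Genes around the members were taken from pathway lists, chosen by known function. None of the lists had a gene that passed the edgeR test over all genes, and beside each stand its counts at an unadjusted p under 0.05 and by DESeq2. Over all genes, 9.37% were lower and 9.65% higher at an unadjusted p under 0.05 by edgeR. DESeq2 called 3.43% lower and 3.64% higher. The genes named below are among the 4 with the lowest p in their list, and their levels are group means ± SD (n = 3) unless each library is given. Beside the median of a list stands its range with 1 library left out, computed after the data were seen.

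Upstream of ATF4, the list of eIF2alpha kinases, phosphatases and subunits of eIF2B, the exchange factor that phosphorylated eIF2alpha blocks, had 10 of 14 genes lower and 4 higher, with a median log2 fold change of -0.09 (-0.12 to -0.04, the latter without CePPy 1). At an unadjusted p under 0.05 by edgeR, 2 were lower and 1 higher, and DESeq2 called 0. Eif2b5, the catalytic subunit of eIF2B, had a level of 84.0 ± 4.64 CPM in vehicle and 69.7 ± 3.20 in CePPy (-0.27 on the log2 scale, SE 0.08). Eif2ak3, which encodes the kinase PERK of the endoplasmic reticulum, had higher values, at 45.7 ± 1.22 and 52.6 ± 3.70 CPM (0.20, SE 0.08). Gcn1l1, a partner of the amino acid sensing kinase GCN2, measured 92.1 ± 3.38 and 78.6 ± 8.50 CPM (-0.23, SE 0.09).

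Among transcription factors that pair with ATF4 or are induced with it, 4 of 8 had lower and 4 higher values (median -0.04, range -0.13 without CePPy 2 to -0.03 without CePPy 1). Of these, 2 were lower at an unadjusted p under 0.05 by edgeR, and DESeq2 called both lower. Cebpb, whose protein forms dimers with ATF4, measured 62.6, 60.3 and 70.7 CPM in vehicle and 24.5, 39.2 and 31.5 in CePPy. The groups did not overlap, and the log2 fold change was -1.02 (SE 0.16, edgeR adjusted p = 0.0813 and DESeq2 adjusted p = 2.53e-06). Atf5, a close relative of Atf4, measured 50.3, 59.9 and 50.0 CPM in vehicle and 33.2, 40.9 and 28.0 in CePPy (-0.65, SE 0.15, edgeR adjusted p = 0.11). Atf5 too lay below vehicle in each CePPy library. Jdp2 measured 8.44 ± 0.594 and 6.44 ± 1.07 CPM (-0.39, SE 0.17), and Cebpg, another partner of ATF4, 47.6 ± 0.878 and 51.9 ± 3.23 (0.12, SE 0.08).

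Transporters that bring in amino acids under ATF4 had 4 of 8 tested genes lower and 4 higher, with a median of -0.01 that took both signs (-0.09 without CePPy 2 to 0.01 without CePPy 1). Only 1 had an unadjusted p under 0.05 by edgeR, and DESeq2 called it lower. Slc7a11, which imports cystine and is a target of NRF2 as well, had the lowest p and differed by -1.30 on the log2 scale (SE 0.23, edgeR adjusted p = 0.0872). Its level was low, at 3.43 ± 0.055 CPM in vehicle and 1.39 ± 0.196 in CePPy. Slc7a3 did not pass the filter on low counts. All 20 cytosolic aminoacyl-tRNA synthetase genes, which load tRNAs with their amino acids and many of which ATF4 induces, had lower values, by a small amount (median -0.15, range -0.24 without CePPy 2 to -0.10 without CePPy 1, where 18 of 20 were lower). Of these, 5 had an unadjusted p under 0.05 by edgeR and 0 were called by DESeq2. Rars measured 89.3 ± 4.30 and 72.0 ± 9.98 CPM (-0.31, SE 0.11) and Sars, for the enzyme that loads serine, 226 ± 23.9 and 182 ± 24.8 (-0.31, SE 0.12). This list averaged -0.27, 0.00 and -0.27 against the vehicle mean in CePPy 1, 2 and 3, so CePPy 2 stood at the vehicle level.

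Enzymes that use serine and glycine, or carry the one-carbon units taken from them, had higher values in 14 of 18 tested genes (median 0.14, range 0.12 to 0.20), while the 3 serine synthesis genes had lower values. Of the 18, 4 were higher at an unadjusted p under 0.05 by edgeR and 0 lower. Aldh1l1, a folate enzyme that oxidises formyl units, measured 192, 206 and 200 CPM in vehicle and 377, 262 and 306 in CePPy. The groups did not overlap, and the log2 fold change was 0.66 (SE 0.13, edgeR adjusted p = 0.102 and DESeq2 adjusted p = 0.000319). Srr, serine racemase, measured 63.3 ± 1.42 and 85.4 ± 13.1 CPM (0.43, SE 0.11). Amt, of the glycine cleavage system, measured 23.1 ± 1.35 and 33.8 ± 7.37 (0.55, SE 0.16). DESeq2 called these 3 genes higher. Cth, which makes cysteine from cystathionine, a product of serine and homocysteine, measured 89.9 ± 5.02 and 116 ± 25.9 CPM (0.37, SE 0.15). The list average was 0.26, 0.04 and 0.16 in CePPy 1, 2 and 3, the same order as that of the proximal tubule markers (1.20, 0.14 and 0.75). The marker lists of the thick ascending limb, distal convoluted tubule and collecting duct had this order too, so it was not particular to the proximal tubule. Sds did not pass the filter. In the list for proline, aspartate and alanine synthesis 6 of 10 genes were lower and 4 higher, with 1 in each direction at an unadjusted p under 0.05 by edgeR. DESeq2 called 1 of them lower. The median was -0.06 and took both signs (-0.09 without vehicle 1 to 0.04 without CePPy 1). Got2, the mitochondrial aspartate aminotransferase, measured 390 ± 3.77 and 329 ± 17.0 CPM (-0.25, SE 0.08) and Gpt, the cytosolic alanine aminotransferase, 5.40 ± 1.04 and 8.19 ± 0.718 (0.60, SE 0.19).

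Secreted factors and other reported ATF4 targets were mixed. Gdf15, a hormone released by stressed cells, measured 99.7, 71.2 and 60.7 CPM in vehicle and 24.2, 52.9 and 37.6 in CePPy. CePPy libraries were all below vehicle, and the difference was -1.01 on the log2 scale (SE 0.28, edgeR adjusted p = 0.141 and DESeq2 adjusted p = 0.00567). It was the only one of the 4 secreted factors with an unadjusted p under 0.05 by edgeR or a call by DESeq2. The others were Fgf21 (-0.86, SE 0.83, under 1 CPM in every library), Stc2 (0.23, SE 0.21) and Vegfa (0.20, SE 0.14). Of 12 other targets, 6 were lower and 6 higher (median 0.00, range -0.06 without vehicle 2 to 0.05 without vehicle 3). By edgeR 2 were lower and 1 higher at an unadjusted p under 0.05, and DESeq2 called 1 in each direction. Eif4ebp1, a repressor of cap-dependent translation, measured 75.3, 66.3 and 72.5 CPM in vehicle and 32.0, 50.7 and 31.6 in CePPy, again without overlap (-0.90, SE 0.18, edgeR adjusted p = 0.102). Herpud1, which serves degradation of endoplasmic reticulum proteins and is also a target of ATF6, had higher values, at 194 ± 26.0 and 273 ± 50.6 CPM (0.50, SE 0.15). Beside Ddit4 and Sesn2, regulators of mTORC1 had 9 of 12 genes lower and 3 higher (median -0.06, range -0.09 to -0.05). At an unadjusted p under 0.05 by edgeR 2 were lower, and DESeq2 called 0. The Ddit4 relative Ddit4l measured 13.9 ± 3.50 and 9.10 ± 0.503 CPM (-0.61, SE 0.19), and Akt1s1, for the mTORC1 inhibitor PRAS40, 75.1 ± 2.55 and 64.0 ± 3.39 (-0.23, SE 0.07). In the list of close relatives of the members, which shares Atf5, Ddit4l, Sesn1 and Sesn3 with the others, 4 of 8 were lower and 4 higher (median 0.02, range -0.06 without CePPy 1 to 0.05 without vehicle 3). DESeq2 called 1 of them lower, Atf5, and edgeR gave 2 an unadjusted p under 0.05. Trib2 measured 51.3 ± 1.28 and 65.2 ± 15.4 CPM (0.35, SE 0.15), and Sesn1 11.5 ± 1.09 and 14.9 ± 3.90 (0.37, SE 0.19).

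The other 2 arms of the unfolded protein response, run by the sensors IRE1 and ATF6, had higher values in 16 of 17 genes, the exception being Sec61b (-0.08, SE 0.08, named after its values were seen). The median log2 fold change was 0.31 (0.26 to 0.37, with 16 of 17 higher whichever library was left out), beside -0.27 for the ATF4 arm and serine synthesis genes. In these 16 the CePPy libraries lay wholly above vehicle, each had an unadjusted p under 0.05 by edgeR, and DESeq2 called 9 higher. Over all genes the shares were 12.3%, 9.65% and 3.64%. Dnajc3, a cochaperone that restrains PERK, measured 139, 148 and 144 CPM in vehicle and 214, 185 and 218 in CePPy (0.51, SE 0.09, edgeR adjusted p = 0.0832). Sdf2l1 measured 15.7 ± 1.05 and 26.0 ± 5.77 CPM (0.73, SE 0.16), Ern1, for IRE1 itself, 20.1 ± 0.786 and 26.9 ± 2.30 (0.43, SE 0.10), and the disulfide isomerase gene Pdia4 122 ± 1.06 and 159 ± 15.6 (0.38, SE 0.09). The average of this list was 0.45, 0.24 and 0.30 in CePPy 1, 2 and 3, against -0.40, -0.20 and -0.59 for the 10 members. The difference between these lists was not tested. The IRE1 and ATF6 list had the same order of CePPy libraries as the proximal tubule markers (1.20, 0.14 and 0.75). The marker lists of the thick ascending limb, distal convoluted tubule and collecting duct had that order too. The part of tubule content in the higher values was not tested.

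**Figure D4:**
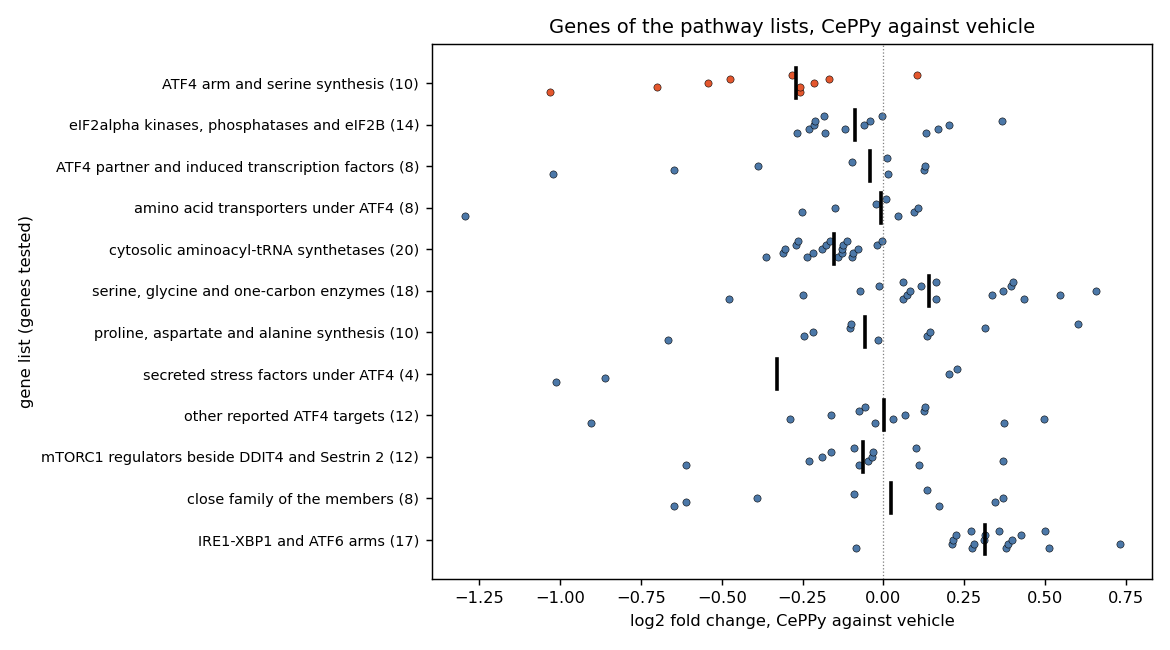
Log2 fold change of each gene tested (points), CePPy against vehicle, by pathway list, with a black bar at the list median and the number of genes tested in brackets. The ATF4 arm and serine synthesis genes (orange) have a median of -0.27, the 20 tRNA synthetase genes all lie below 0, and 16 of 17 genes of the IRE1 and ATF6 arms lie above 0.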

How the data were processed

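Messenger RNA of 6 kidney libraries was measured by RNA sequencing. The deposited values are raw whole-number read counts per gene, 1 column per library, with no normalization by the authors. Each column was matched to a sample by the column name given in the sample description, and the sample title gave the group. Cufflinks, DESeq, TopHat2 and the build GRCm38 stand in the submitters' processing notes; the counting program and any use of strand were not given in the sources used here.

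Counts were filtered with filterByExpr, scaled by TMM and tested with the quasi-likelihood test of edgeR 4.0.16 (R 4.3.3), with treatment as the only term, 4 residual degrees of freedom and Benjamini-Hochberg adjustment over all 15416 genes tested (threshold 0.05). The fit was tested on simulated data. DESeq2 1.42.0, limma 3.58.1, other scalings, no filter, a replicate block and leaving out each library were alternatives. Log2 levels used a prior count of 2. Similar transcripts were found with BLAST 2.17.0 (at least 90% identity over 200 bases). An exact permutation test of 3 against 3 libraries cannot give a two-sided p below 0.1. Replicates of 1 group differed beyond sampling noise in all pairs (chi-square per degree of freedom 19.7 to 106).

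Members, lists and tests were chosen with earlier results of these data known. All 10 members are named. From each list the genes that passed were to be named and, with none, up to 4 with the lowest p. For Atf4, Asns and Phgdh the 3 genes of most similar profile are named. List symbols matched the table directly, except 3 found under older names (Gcn1l1, Mars and Pycrl).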

Additional observations from a re-analysis of the deposited data

How the results depend on the processing

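The number of genes called by edgeR, 1 in the fit reported, was 1026 with DESeq2, 352 with limma-voom and sample quality weights, 63 without the filter on low counts, 0 with the replicate block and 0 to 811 with 1 library left out (811 without CePPy 2). The number of members called, 0, became 3 with DESeq2 (Ddit4, Phgdh and Psat1), 2 with limma-voom and sample quality weights (Phgdh and Psat1), and 0 to 3 with 1 library left out (3 without CePPy 2). It was 0 with limma-voom, the other scalings, no filter and the replicate block. The median log2 fold change of the members, -0.27, was -0.40 with limma-voom and sample quality weights and -0.48 to -0.18 with 1 library left out. Atf4 changed sign, to -0.071, with limma-voom and sample quality weights, and ran from -0.052 (without CePPy 1) to 0.26 (without CePPy 3) with 1 library left out. The other 9 members kept a negative sign under all 14 alternatives. The cause of these changes was not tested.

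The labels number the libraries 1 to 3 in both groups. Deviations of same-numbered libraries from their group means correlated between -0.15 and 0.10 across genes. Only 2 of 6 libraries, vehicle 2 and CePPy 2, correlated best with their own number. These values gave no sign that the number pairs libraries, but with 3 per group they cannot settle it. With the replicate block the members' median was -0.31. Depth limits Trib3 and Chac1 most, at 76 to 322 counts per library.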
